A study of Arabidopsis thaliana with 16 samples.

Results

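Expansins and xyloglucan enzymes loosen, cut and rejoin the load-bearing polymers of the growing plant cell wall. The members described here are the 77 of 28403 main-category probe sets whose gene description in the authors' annotation contains the word expansin or xyloglucan, and they represent 76 loci. The expansin family held 36 probe sets for 35 loci, of which 26 were for alpha-expansins, 6 for beta-expansins and 4 for expansin-like proteins. The xyloglucan family held 41 probe sets, 33 for xyloglucan endotransglucosylase/hydrolases (XTHs) and 8 for enzymes that carry out xyloglucan synthesis or other steps. In that last group, XEG113 is annotated as a xyloglucanase but is known as an arabinosyltransferase of extensins, so it belongs to xyloglucan metabolism by its annotation alone.

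Xyloglucan is a branched glucan that coats and tethers cellulose microfibrils in the primary wall of leaves. XTHs cut a xyloglucan chain and join the end to another chain or to water. Expansins carry no hydrolytic activity and loosen the bonds between cellulose and the matrix at acid pH, which lets a wall under turgor extend.

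RNA from whole rosettes of Arabidopsis thaliana was measured on 16 Affymetrix arrays. The genotypes were a SAP3 knockout (sap3), a CML49 knockout (cml49) and the Col-0 wild type (WT). SAP3 encodes a stress-associated zinc finger protein and CML49 a calmodulin-like protein. Every group spent 3 weeks at 80 to 100 µmol photons m-2 s-1 and was then kept at 8 µmol for 10 days. High light (HL) was a move to 800 µmol, for 60 min by the titles and 10 min by the treatment protocol, and low light (LL) plants stayed at 8 µmol. Single-replicate arrays, of 15 plants each, covered sap3 in HL, sap3 in LL, WT in HL and WT in LL, with 3 arrays in each group. Pooled arrays, of 45 plants from 3 replicates each, covered cml49 in HL, cml49 in LL, WT in HL and WT in LL, with 1 array in each group. The sources used here do not say whether the WT pools hold RNA of the WT single replicates. Each value is a log2 signal, the array medians lay between 4.37 and 4.41, and levels are compared between groups only within a probe set. Signals ranked, summed or set beside the array median across probe sets only describe the arrays and do not measure relative transcript amounts. A rosette mixes cell types, so fewer cells of a type and less RNA per cell cannot be told apart.

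3 single-replicate arrays had a light state opposite to their label: sap3_HL_3, sap3_LL_2 and WT_HL_2. On a score from 250 light-responsive probe sets chosen in the pools, none of them members, where 0 is the LL pools and 1 the HL pools, sap3_HL_3 had 0.03, sap3_LL_2 0.95 and WT_HL_2 0.07. The other arrays scored 0.92 to 1.00 where labelled HL and 0.03 to 0.06 where labelled LL. SAP3 itself had signals of 3.74 to 5.28 in sap3 HL, 4.05 to 6.98 in sap3 LL, 3.94 to 6.48 in WT HL and 4.84 to 5.14 in WT LL, with the highest value in sap3_LL_2. CML49 was higher in the cml49 pools (4.23 in HL, 3.97 in LL) than in the WT pools (3.30 in HL, 2.77 in LL). In the WT single replicates it had 4.14 to 4.54 in HL and 4.31 to 4.44 in LL, so the WT pools lay below all of these. Genotypes are therefore given as labelled, and the sites of the mutations relative to these probe sets are not known here. The leaf markers RBCS1A, LHCB1.3, RCA, GLDP1 and CA1 had signals of 10.15 to 13.34 in every single-replicate array, while 4 of 5 root and root hair markers and 4 of 4 pollen markers lay below the array median. The remaining root marker, PYK10, lay well above it, with a mean signal of 8.60, so the root markers did not go together. Each comparison was run on the 12 arrays under their labels and again on the 9 arrays that remain without those 3. Because the 9 arrays were chosen by light state, a count of light-responsive members in them is no independent evidence of a light effect. Groups of so few arrays can also fail to overlap without any effect, and many members shown by array were picked by small p-values. The share of all probe sets without overlap was not counted, so statements of overlap below only describe the values.

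Over the 12 arrays as labelled, limma called 0 of the 77 members at an adjusted p under 0.05 in either light comparison, against 0.0% of all probe sets. At an unadjusted p under 0.05 there were 3 members for sap3 in HL against LL (3.14% of all probe sets) and 13 for WT in HL against LL (6.16%). In each family, the 2 smallest unadjusted p-values of the sap3 comparison belonged to MUR3, a galactosyltransferase of xyloglucan side chains, at a log2 difference of 0.40 (SE 0.16), XTH2 at -0.37 (SE 0.15), EXP26 at -0.53 (SE 0.21) and EXPB4 at 0.51 (SE 0.24), each with a limma adjusted p of 0.994. In the WT comparison they belonged to EXPA7, an expansin known from root hairs, at -0.45 (SE 0.14), XTH4 at -0.60 (SE 0.21), EXPA1 at 0.67 (SE 0.24) and XTH33 at -0.55 (SE 0.23), each with a limma adjusted p of 0.713. EXPA7 had 2.86, 2.90 and 2.56 in WT HL, against 3.26, 3.12 and 3.30 in WT LL, and the groups did not overlap. Here WT_HL_2 (2.90) lay with its label and not with its light state. The EXPA7 pools went the other way, by 0.04 in cml49 and 0.20 in WT, and its sap3 difference was 0.0067. XTH33 had 3.06, 2.97 and 2.99 in WT HL, against 3.58, 3.33 and 3.77 in WT LL, again without overlap. WT_HL_2 (2.97) again lay with its label, and the XTH33 pools differed by -0.15 in cml49 and -0.66 in WT. MUR3 had 6.19, 5.94 and 5.74 in sap3 HL, against 5.56, 5.67 and 5.44 in sap3 LL, also without overlap. XTH2, EXPB4, EXP26, EXPA7 and XTH33 had signals below the array median. XTH2 had 2.13 to 2.38 in sap3 HL, against 2.50 to 2.82 in sap3 LL, and EXPB4 1.93 to 2.76, against 1.72 to 1.96.

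Over the 9 arrays, 13 of 77 members were called for light in sap3, 8 higher and 5 lower in HL, beside 7.57% of all probe sets (4.09% higher, 3.47% lower). In WT, 11 of 77 were called, 6 higher and 5 lower, beside 9.13% of all probe sets (4.99% higher, 4.14% lower). At an unadjusted p under 0.05 there were 19 members in sap3 and 29 in WT, beside 19.5% and 20.4% of all probe sets. The called members made up 16.9% of the list in sap3 and 14.3% in WT. A total of 9 members were called in both genotypes, all of them in the same direction, with 5 higher and 4 lower. These 9 are 69.2% of the sap3 calls and 81.8% of the WT calls, and 11.7% of the list. Over all probe sets, 5.88% were called in both genotypes, which is 77.7% of the sap3 calls and 64.4% of the WT calls, and 1670 of these 1671 had the same direction. Both families held members that moved each way. The expansin family had 5 calls higher and 2 lower of 36 in sap3, and 4 higher and 2 lower in WT. The xyloglucan family had 3 higher and 3 lower of 41 in sap3, and 2 higher and 3 lower in WT, and every one of its calls was an XTH. None of the 8 probe sets for synthesis and other steps and none of the 4 expansin-like probe sets was called in the 9 arrays.

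Over the 9 arrays, the median log2 difference between HL and LL was near 0 in both families. It was 0.05 for expansins and 0.02 for the xyloglucan family in sap3, beside -0.03 over all probe sets. In WT it was 0.06 for expansins and 0.01 for the xyloglucan family, beside -0.02 over all probe sets. Over the 12 arrays as labelled, the xyloglucan median in sap3 was -0.16, with 13 of 41 differences above 0 and 28 below, beside -0.01 over all probe sets. The other medians over the 12 arrays were 0.03 for expansins in sap3, 0.06 for expansins in WT and -0.0033 for the xyloglucan family in WT. Without regard to direction, the median size over the 9 arrays was 0.28 for expansins and 0.25 for the xyloglucan family in sap3, beside 0.21 over all probe sets, and 0.31 for each family in WT, beside 0.20. A size of at least 1 was reached by 4 expansins and 7 xyloglucan probe sets in sap3 (14.3% of the 77, beside 4.70% of all probe sets), and by 2 and 4 in WT (7.79%, beside 4.52%). The median SD within groups was also larger, at 0.25 in each family beside 0.20 over all probe sets. These sizes therefore do not by themselves show a stronger light response, and the part of the spread in them was not tested.

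**Figure D1:**
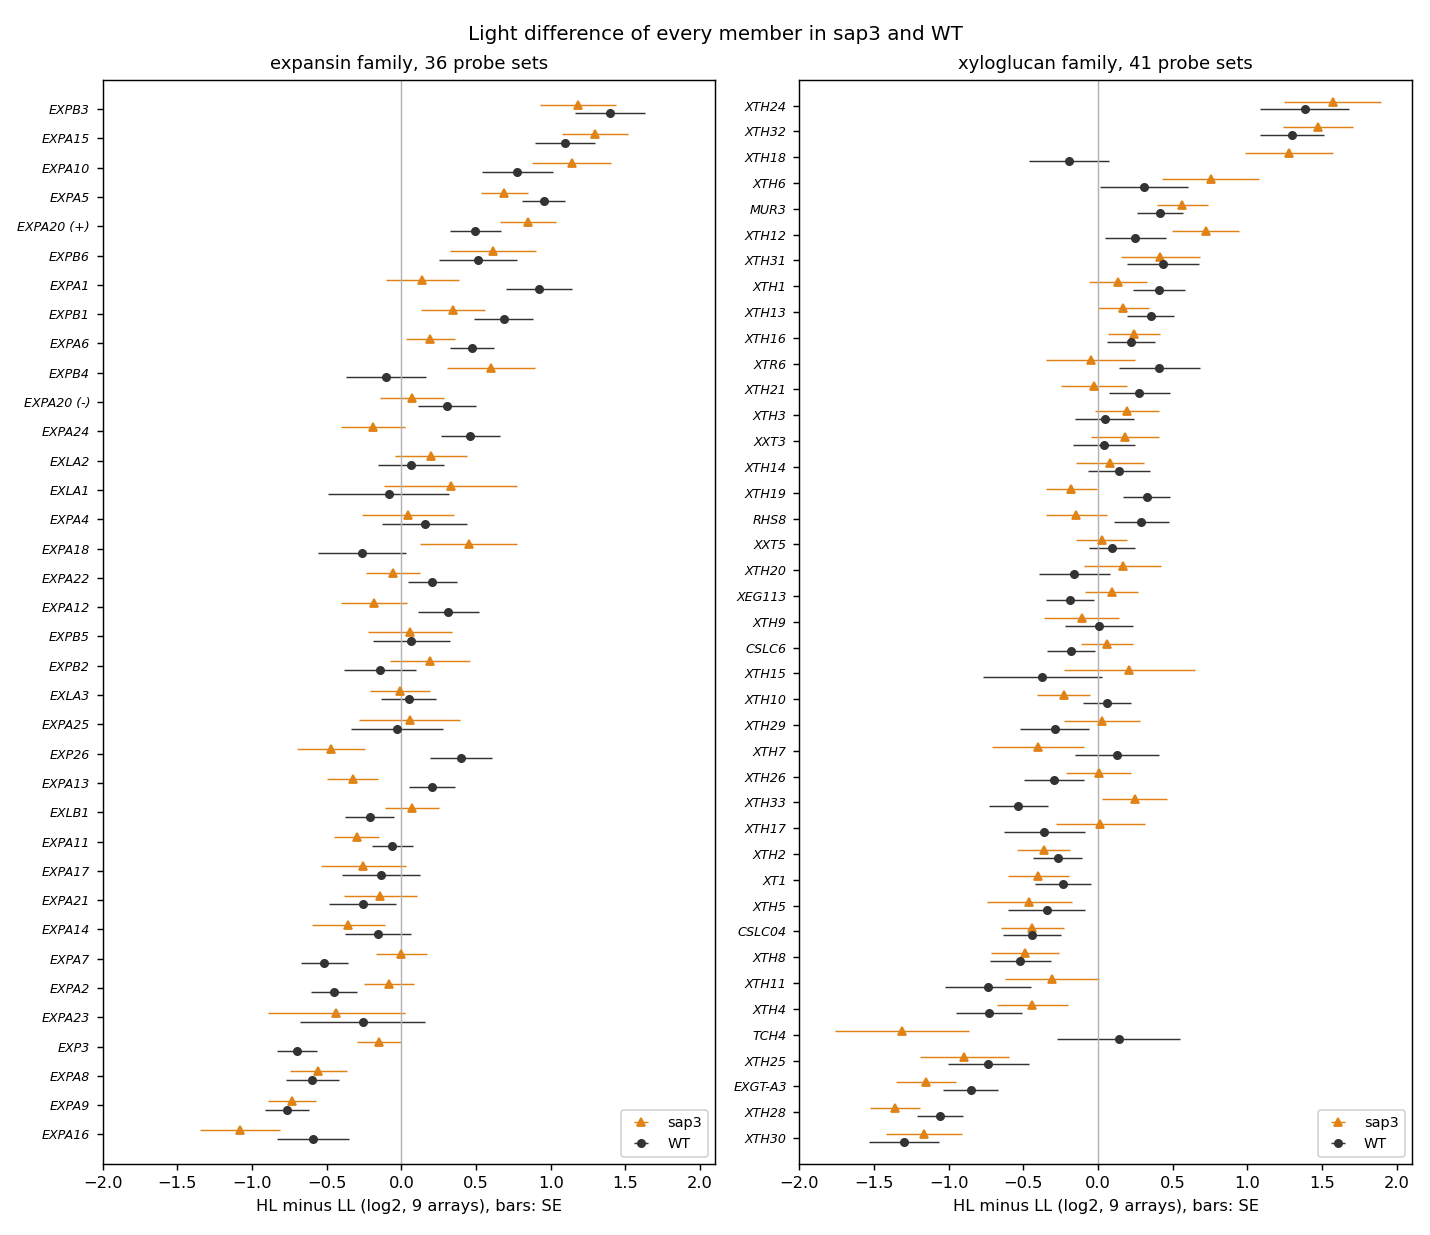
Log2 difference between HL and LL of every member in the 9 arrays, with bars for its standard error, for the 36 expansin probe sets (left) and the 41 xyloglucan probe sets (right); triangles are sap3 and circles WT. Members are ordered by the mean of both genotypes, and in each family a few lie past 0.5 on either side while most lie near 0, with EXPB3 at the top of the expansins (1.19 in sap3, 1.40 in WT) and XTH28 near the foot of the xyloglucan family (-1.36 in sap3, -1.06 in WT).

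Among the XTHs, XTH28, EXGT-A3 (also named XTH27) and XTH30 fell in HL, and XTH32 and XTH24 rose. XTH28 (AT1G14720, chromosome 1, 5066636 to 5068645 in the authors' annotation, for which the sources used here name no genome build) had signals of 6.20 and 6.48 in sap3_HL_1 and sap3_HL_2, against 7.60 and 7.80 in sap3_LL_1 and sap3_LL_3. It had 6.71 and 6.56 in WT_HL_1 and WT_HL_3, against 7.76, 7.57 and 7.76 in the WT LL arrays. Every HL array lay below every LL array in both genotypes. The log2 difference was -1.36 (SE 0.17, limma adjusted p = 0.000849) in sap3 and -1.06 (SE 0.15, limma adjusted p = 0.00168) in WT. The arrays with the opposite light state had 7.94 in sap3_HL_3, 6.19 in sap3_LL_2 and 7.79 in WT_HL_2, which put each of them among the arrays of the other light level. The pools gave 6.50 in HL and 7.90 in LL for cml49, and 5.98 in HL and 7.89 in LL for WT.

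EXGT-A3 (AT2G01850, chromosome 2, 385199 to 387344), known from developing veins of rosette leaves, had signals of 6.29 and 6.81 in sap3_HL_1 and sap3_HL_2, against 7.66 and 7.74 in sap3_LL_1 and sap3_LL_3. In WT it had 6.74 and 6.52 in HL, against 7.67, 7.39 and 7.39 in LL. The HL and LL arrays did not overlap in either genotype. It fell by 1.15 in sap3 (SE 0.20, limma adjusted p = 0.00612) and by 0.85 in WT (SE 0.18, limma adjusted p = 0.0163). The sap3 call was lost without sap3_HL_1 (adjusted p = 0.0501). The WT call was lost without WT_HL_1 (0.0618), without WT_HL_3 (0.153) and without WT_LL_1 (0.0544). At 7.14, sap3_LL_2 lay between the other sap3 HL and LL arrays, nearer the LL mean. The log2 difference was -1.61 in the cml49 pools and -2.17 in the WT pools.

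XTH30 (AT1G32170, chromosome 1, 11575320 to 11577927) had signals of 3.40 and 3.78 in sap3_HL_1 and sap3_HL_2, against 4.62 and 4.89 in sap3_LL_1 and sap3_LL_3. Its WT values were 2.92 and 3.31 in HL, against 4.08, 4.81 and 4.35 in LL. All HL arrays were again lower than all LL arrays. The log2 difference was -1.17 in sap3 (SE 0.25, limma adjusted p = 0.0196) and -1.3 in WT (SE 0.23, limma adjusted p = 0.00588). The sap3 call was lost without sap3_HL_1 (adjusted p = 0.150) and without sap3_LL_3 (0.124), and the WT call without WT_HL_1 (0.0777). The pools differed by -1.29 in cml49 and -0.89 in WT.

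XTH32 (AT2G36870, chromosome 2, 15472645 to 15474681) rose in both genotypes. Its signals were 6.23 and 6.25 in sap3_HL_1 and sap3_HL_2, against 4.79 and 4.74 in sap3_LL_1 and sap3_LL_3. In WT they were 6.41 and 6.30 in HL, against 5.03, 4.65 and 5.49 in LL. No HL array overlapped the LL arrays, and sap3_HL_3 (4.64), sap3_LL_2 (6.21) and WT_HL_2 (4.94) each lay with the arrays of the other light level. The log2 difference was 1.48 in sap3 (SE 0.23, limma adjusted p = 0.00354) and 1.3 in WT (SE 0.21, limma adjusted p = 0.00373). The pools gave 6.64 in HL and 4.71 in LL for cml49, and 6.53 in HL and 5.0 in LL for WT.

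XTH24 (AT4G30270, chromosome 4, 14819192 to 14820592), also known as MERI5B, had 9.04 and 10.12 in sap3_HL_1 and sap3_HL_2, against 8.01 in both sap3_LL_1 and sap3_LL_3. In WT it had 8.88 and 8.92 in HL, against 7.09, 7.84 and 7.62 in LL. HL arrays were higher than LL arrays in both genotypes, with a wider gap between the sap3 HL arrays. It rose by 1.57 in sap3 (SE 0.33, limma adjusted p = 0.0157) and by 1.38 in WT (SE 0.30, limma adjusted p = 0.0166). The sap3 call was lost without sap3_HL_2 (adjusted p = 0.0740), sap3_LL_1 (0.0706) or sap3_LL_3 (0.0804) and with only the sap3 groups fitted (0.0515), and the WT call without WT_HL_1 (0.0994) or WT_HL_3 (0.111). The cml49 pools gave 8.81 in HL and 7.34 in LL, while the WT pools gave 8.15 and 8.14 with a difference of 0.01. The highest value of XTH24 in any array was 10.99, in sap3_LL_2.

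XTH18 (AT4G30280, chromosome 4, 14825808 to 14827047), which belongs to a set of XTHs known mainly from roots, was called in sap3 only. Its signals were 3.30 and 4.24 in sap3_HL_1 and sap3_HL_2, against 2.35 and 2.63 in sap3_LL_1 and sap3_LL_3, and the groups did not overlap. In WT they were 2.61 and 2.03 in HL, against 2.63, 2.42 and 2.50 in LL, and the groups overlapped. The difference was 1.28 in sap3 (SE 0.29, limma adjusted p = 0.0251) and -0.20 in WT (SE 0.27, limma adjusted p = 0.767). The test of the difference between genotypes did not pass, at 1.48 (SE 0.40, limma adjusted p = 1.00). The sap3 call was lost without sap3_HL_2 (adjusted p = 0.122), sap3_LL_1 (0.131) or sap3_LL_3 (0.0716), and with only the sap3 groups fitted (0.0800). The probe set has 8 probes, and its pool differences were 0.23 in cml49 and -0.01 in WT.

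**Figure D2:**
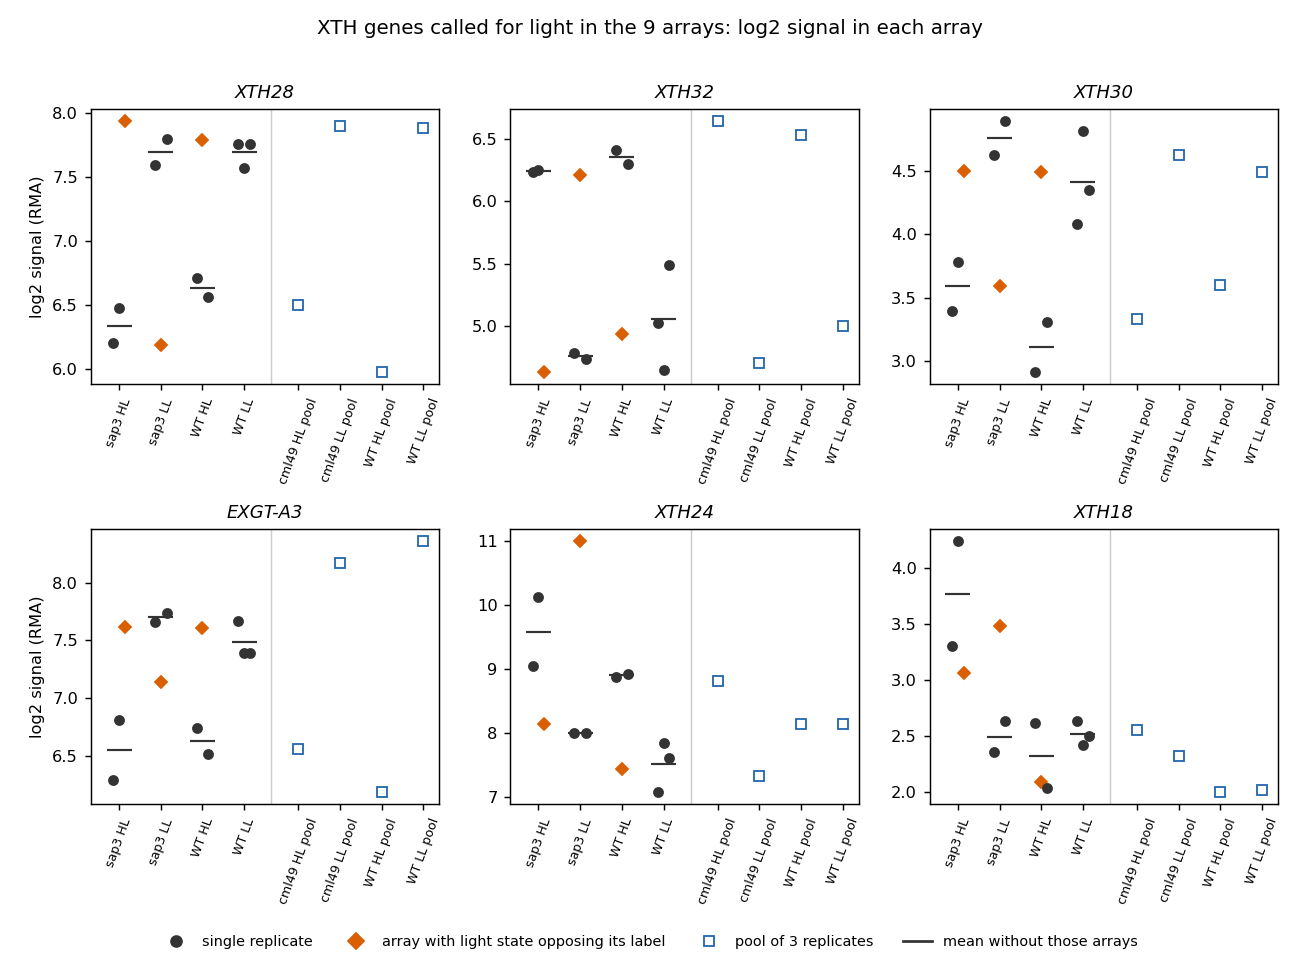
Log2 signal of the 6 XTH genes called for light in the 9 arrays, with 1 panel per gene and its own vertical axis; circles are single replicates, orange diamonds the 3 arrays whose light state opposes their label, squares the pools, and lines the means without the diamonds. XTH28, EXGT-A3 and XTH30 are lower and XTH32 and XTH24 higher in the HL circles, and in these 5 genes most diamonds lie toward the other light level.

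Set out by clade of the XTH tree, a grouping applied after the values were seen, the called members that fell share clade III-B. That clade has 5 members here, of which EXGT-A3, XTH28 and XTH30 were lower in HL. XTH29 had log2 differences of 0.03 in sap3 and -0.29 in WT and XTH33 of 0.25 and -0.54, and neither was called (limma adjusted p = 0.975 and 0.561 for XTH29, 0.617 and 0.148 for XTH33). Clade III-A, whose members are known for hydrolase rather than transferase activity, has 2 members here. XTH32 rose, and XTH31 had 0.42 in sap3 (SE 0.26, limma adjusted p = 0.450) and 0.44 in WT (SE 0.24, limma adjusted p = 0.361).

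Among the expansins, EXPA15, EXPB3 and EXPA5 rose and EXPA9 fell in both genotypes. EXPA15 (AT2G03090, chromosome 2, 916854 to 918643) had signals of 6.16 and 5.51 in sap3_HL_1 and sap3_HL_2, against 4.46 and 4.62 in sap3_LL_1 and sap3_LL_3. It had 5.62 and 5.91 in WT_HL_1 and WT_HL_3, against 4.63, 4.80 and 4.58 in the WT LL arrays. All HL arrays lay above all LL arrays, and the 3 arrays set apart (4.78 in sap3_HL_3, 5.66 in sap3_LL_2 and 4.37 in WT_HL_2) lay nearer the other light level. The log2 difference was 1.3 in sap3 (SE 0.22, limma adjusted p = 0.00515) and 1.10 in WT (SE 0.20, limma adjusted p = 0.00668). The WT call was lost without WT_HL_3 (adjusted p = 0.0853). EXPA15 was the only expansin that differed by at least 1 in both pool pairs, at 1.06 in cml49 and 1.25 in WT.

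EXPB3 (AT4G28250, chromosome 4, 14000038 to 14002069) was the only beta-expansin called. It had signals of 7.70 and 6.93 in sap3_HL_1 and sap3_HL_2, against 6.03 and 6.23 in sap3_LL_1 and sap3_LL_3. Its WT values were 7.79 and 8.03 in HL, against 6.72, 6.26 and 6.56 in LL. No HL array overlapped the LL arrays of its genotype. The rise was 1.19 in sap3 (SE 0.25, limma adjusted p = 0.0179) and 1.40 in WT (SE 0.23, limma adjusted p = 0.00383), and the pools differed by 0.75 in cml49 and 1.42 in WT. In sap3 the call was lost without sap3_HL_1 (adjusted p = 0.119), sap3_LL_1 (0.0982) or sap3_LL_3 (0.0621) and with only the sap3 groups fitted (0.0673), and the WT call without WT_HL_3 (0.0511).

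EXPA5 (AT3G29030, chromosome 3, 11011308 to 11013358), an expansin known for its part in brassinosteroid-dependent growth, had signals of 7.31 and 7.02 in sap3_HL_1 and sap3_HL_2, against 6.50 and 6.45 in sap3_LL_1 and sap3_LL_3. In WT it had 7.25 and 7.08 in HL, against 6.19, 6.17 and 6.28 in LL. The gap between HL and LL was larger than the spread within any of the 4 groups. EXPA5 rose by 0.69 in sap3 (SE 0.16, limma adjusted p = 0.0260) and by 0.95 in WT (SE 0.15, limma adjusted p = 0.00235). That of sap3 was lost without sap3_HL_1 (adjusted p = 0.170), sap3_LL_1 (0.0821) or sap3_LL_3 (0.117), and with only the sap3 groups fitted (0.118). The pools differed by 0.66 in cml49 and 1.36 in WT.

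EXPA9 (AT5G02260, chromosome 5, 463158 to 465246) had signals of 4.29 and 4.22 in sap3_HL_1 and sap3_HL_2, against 5.10 and 4.88 in sap3_LL_1 and sap3_LL_3. In WT the values were 4.06 and 4.33 in HL, against 4.97, 5.02 and 4.90 in LL. HL arrays were lower than LL arrays in both genotypes, without overlap. EXPA9 fell by 0.74 in sap3 (SE 0.16, limma adjusted p = 0.0201) and by 0.77 in WT (SE 0.15, limma adjusted p = 0.00867). Its call in sap3 was lost without sap3_HL_1 (adjusted p = 0.0789), sap3_HL_2 (0.0850) or sap3_LL_1 (0.113) and with only the sap3 groups fitted (0.0888), and the WT call without WT_HL_1 (0.112). In the pools the difference was -0.75 in cml49 and -0.10 in WT.

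The other 5 called expansins passed in 1 genotype. EXPA10 (AT1G26770, chromosome 1, 9259605 to 9261313), an expansin known to promote leaf growth, had signals of 4.46 and 3.78 in sap3_HL_1 and sap3_HL_2, against 3.14 and 2.82 in sap3_LL_1 and sap3_LL_3. Its WT values were 4.00 and 3.86 in HL, against 3.23, 2.80 and 3.43 in LL. HL lay above LL without overlap in both genotypes, although the WT difference of 0.78 was not called (SE 0.24, limma adjusted p = 0.0794). It rose by 1.14 in sap3 (SE 0.26, limma adjusted p = 0.0257), and that call was lost without sap3_HL_1 (adjusted p = 0.185), sap3_LL_1 (0.0540) or sap3_LL_3 (0.153), and with only the sap3 groups fitted (0.0686). The pools differed by 0.18 in cml49 and 1.16 in WT.

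EXPA16 (AT3G55500, chromosome 3, 20574831 to 20576182) had signals of 3.98 and 3.47 in sap3_HL_1 and sap3_HL_2, against 4.70 and 4.91 in sap3_LL_1 and sap3_LL_3. In WT it had 4.33 and 4.04 in HL, against 5.16, 4.35 and 4.82 in LL, where the highest HL value lay just below the lowest LL value. EXPA16 fell by 1.08 in sap3 (SE 0.27, limma adjusted p = 0.0362), and the WT difference was -0.59 (SE 0.24, limma adjusted p = 0.199). The sap3 call was lost whichever of its 4 arrays was left out: without sap3_HL_1 (adjusted p = 0.0514), sap3_HL_2 (0.185), sap3_LL_1 (0.0871) or sap3_LL_3 (0.172). It was also lost with only the sap3 groups fitted (adjusted p = 0.0501). The pools differed by -1.69 in cml49 and -0.14 in WT.

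EXPA20 (AT4G38210) was represented by probe sets on both strands of chromosome 4. The plus-strand probe set (17923332 to 17924252) had signals of 4.62 and 4.41 in sap3_HL_1 and sap3_HL_2, against 3.71 and 3.62 in sap3_LL_1 and sap3_LL_3. It had 4.22 and 4.37 in WT HL, against 4.03, 3.83 and 3.54 in WT LL, so that HL was higher without overlap in both genotypes. It rose by 0.85 in sap3 (SE 0.19, limma adjusted p = 0.0202) and differed by 0.50 in WT (SE 0.17, limma adjusted p = 0.117). Its sap3 call was lost without sap3_HL_1 (adjusted p = 0.136), sap3_LL_1 (0.0661) or sap3_LL_3 (0.106), and with only the sap3 groups fitted (0.0561). The minus-strand probe set (17922756 to 17923973), which overlaps it, had 0.07 in sap3 and 0.30 in WT and was not called (limma adjusted p = 0.909 and 0.447). In the pools the plus-strand probe set differed by 1.61 in cml49 and 0.45 in WT, and the minus-strand one by -0.21 and 0.27. Which strand the EXPA20 transcript occupies was not tested, so the change of EXPA20 itself is uncertain.

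EXPA1 and EXP3 (EXPA3) were called in WT only. EXPA1 (AT1G69530, chromosome 1, 26141836 to 26143500), known from leaves and guard cells, had signals of 6.27 and 5.68 in sap3_HL_1 and sap3_HL_2, against 5.60 and 6.07 in sap3_LL_1 and sap3_LL_3. In WT it had 6.34 and 6.51 in HL, against 5.61, 5.24 and 5.66 in LL. The groups overlapped in sap3 and not in WT. The WT difference was 0.92 (SE 0.22, limma adjusted p = 0.0280) and the sap3 difference 0.14 (SE 0.24, limma adjusted p = 0.831), while the test between the genotypes gave -0.78 (SE 0.33, limma adjusted p = 1.00). The WT call was lost without WT_HL_1 (adjusted p = 0.110), WT_HL_3 (0.194), WT_LL_1 (0.0521) or WT_LL_2 (0.0920).

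EXP3 (AT2G37640, chromosome 2, 15787705 to 15789853) had signals of 6.92 and 6.94 in sap3_HL_1 and sap3_HL_2, against 7.17 and 6.99 in sap3_LL_1 and sap3_LL_3. In WT the HL arrays had 6.55 and 6.51, against 7.22, 7.32 and 7.15 in LL. HL was below LL in both genotypes, by a narrow gap in sap3. EXP3 fell by 0.70 in WT (SE 0.14, limma adjusted p = 0.00929), a call lost without WT_HL_1 (adjusted p = 0.0693) or WT_HL_3 (0.0864), and the sap3 difference was -0.15 (SE 0.15, limma adjusted p = 0.663). Among the arrays set apart, sap3_LL_2 had 6.53, nearer to the WT HL arrays than to any other sap3 array. The test between the genotypes gave 0.55 (SE 0.20, limma adjusted p = 1.00). Both pool pairs went the other way, at 0.17 in cml49 and 0.21 in WT.

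**Figure D3:**
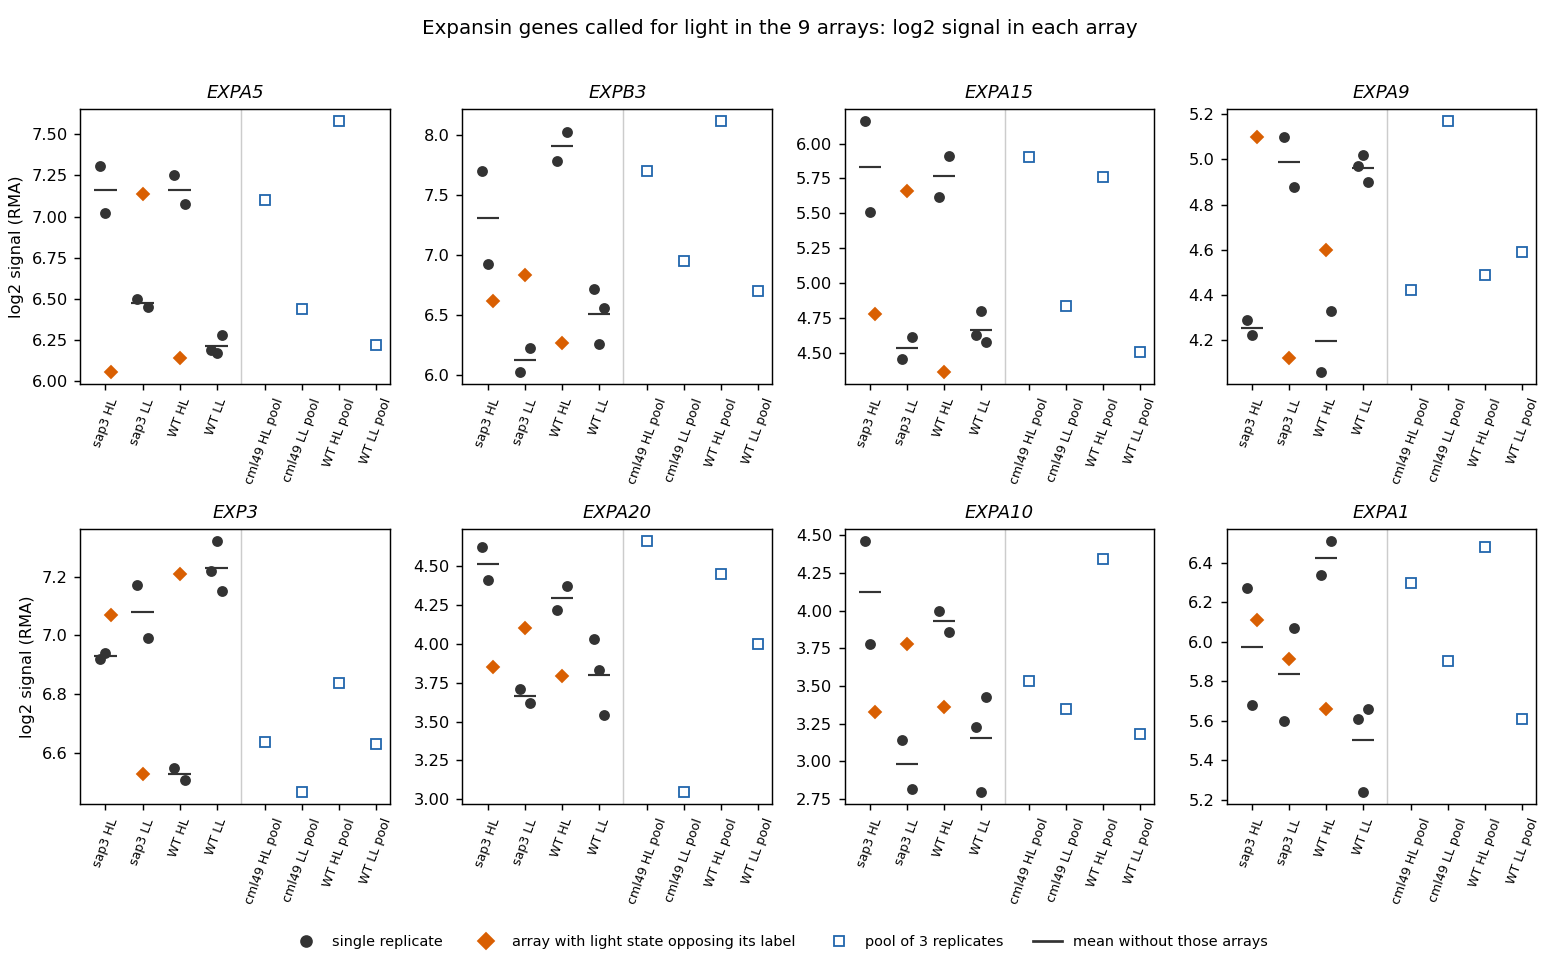
Log2 signal of the 8 expansin genes with the smallest adjusted p among those called in the 9 arrays, with the same symbols as for the XTHs: circles for single replicates, orange diamonds for the 3 arrays whose light state opposes their label, squares for pools and lines for means without the diamonds. EXPA5, EXPB3, EXPA15, EXPA20, EXPA10 and EXPA1 are higher and EXPA9 and EXP3 lower in the WT HL circles than in the WT LL circles, and each vertical axis has its own range.

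Leaving out an array in turn leaves 1 array in a group that had 2, whose spread is then taken from the other groups. Under these omissions 3 of the 13 sap3 calls were kept in all 4 cases (EXPA15, XTH28 and XTH32), and 3 of the 11 WT calls in all 5 (EXPA5, XTH28 and XTH32). The arrays set apart followed the other light level in most called members. They were set apart by light state and the members were called for light in the rest, so this is no independent evidence. Of the 13 members called in sap3, sap3_HL_3 lay nearer the LL mean of the remaining arrays in 13 and sap3_LL_2 nearer the HL mean in 12. Of the 11 called in WT, WT_HL_2 lay nearer the LL mean in 11. Over all 77 members the numbers were 48, 47 and 49, and the share over all probe sets was not counted. Members called in 1 genotype could lie otherwise in the other: in EXPA1, sap3_HL_3 had 6.11, and in EXPA16 and XTH18, WT_HL_2 had 4.3 and 2.09, each nearer the mean of its own label.

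The pools had 1 array per group, so their differences have no replicate check. A size of at least 1 between HL and LL was reached by 10 members in cml49, 5 higher and 5 lower (6.36% of all probe sets, 3.45% higher and 2.90% lower), and by 13 in WT, 5 higher and 8 lower (7.75%, 4.39% higher and 3.36% lower). In the expansin family these were 3 in cml49 and 6 in WT, and in the xyloglucan family 7 in each. Both pool pairs passed together in 2 members that were higher, EXPA15 and XTH32 (2.28% of all probe sets), and in 3 that were lower, EXGT-A3, XTH28 and XTH25 (1.69%). Of the 15 members called for light in sap3 or WT, 13 had both pool differences in the direction of the 9 arrays. The exceptions were EXP3 and XTH18. Among the 13, XTH24 differed by only 0.01 in the WT pools. The share over all called probe sets was not counted.

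XTH25 (AT5G57550, chromosome 5, 23304888 to 23306421) had the largest mean pool difference of the members past 1 in both pairs. Its signals were 4.14 in the cml49 HL pool and 5.28 in the cml49 LL pool, and 2.84 in the WT HL pool and 5.52 in the WT LL pool. In the single replicates it had 3.96 and 4.85 in sap3_HL_1 and sap3_HL_2, against 5.21 and 5.39 in sap3_LL_1 and sap3_LL_3, and 3.98 and 3.72 in WT HL, against 4.25, 4.95 and 4.56 in WT LL. HL was lower than LL in all 4 pairs of groups, and the WT HL pool lay below every other array. The 9-array differences of -0.90 in sap3 (SE 0.30, limma adjusted p = 0.114) and -0.74 in WT (SE 0.27, limma adjusted p = 0.144) did not pass.

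**Figure D4:**
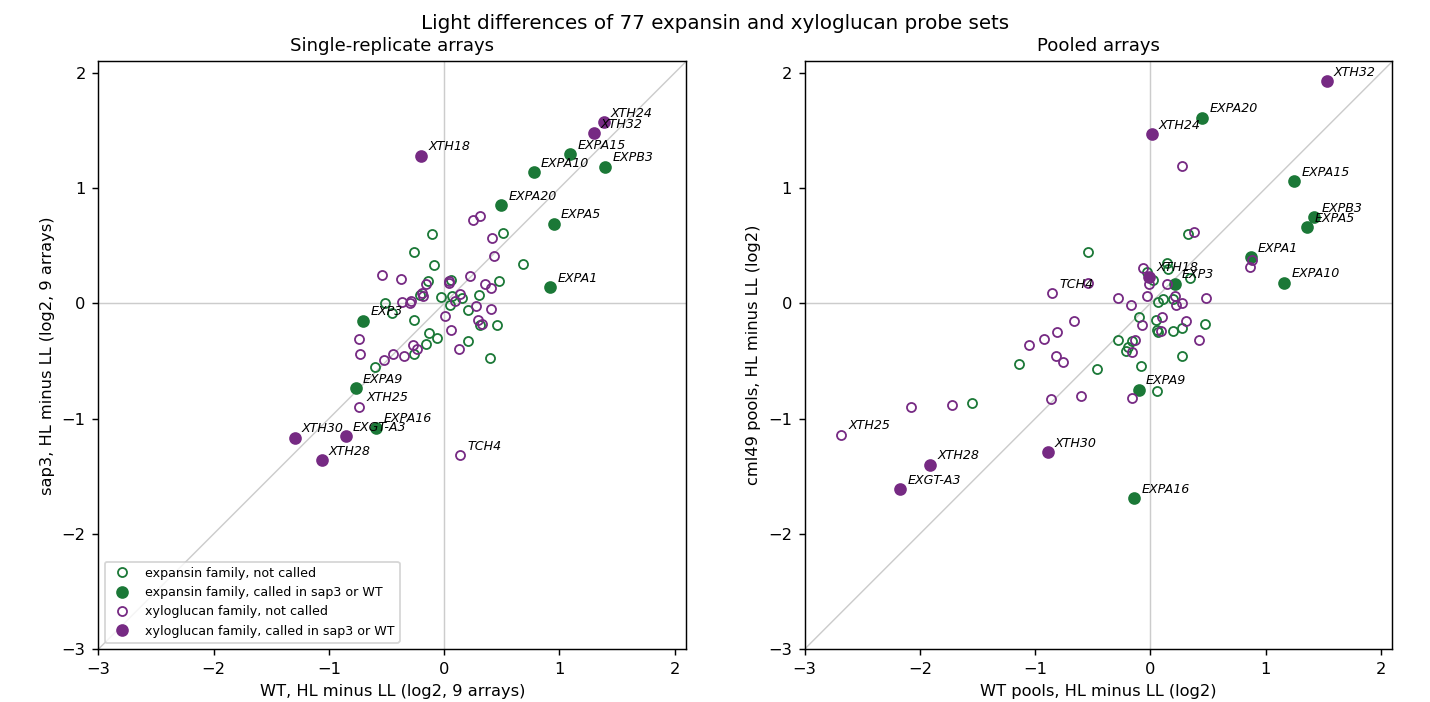
Log2 difference between HL and LL of the 77 members in sap3 (vertical) against WT (horizontal) over the 9 single-replicate arrays, left, and in the cml49 pools against the WT pools, right; filled points are members called in sap3 or WT, green for expansins and purple for the xyloglucan family, and the grey line marks equal differences. XTH32 and EXPA15 lie at the upper right and XTH28 and EXGT-A3 at the lower left of both panels, while XTH18 and TCH4 lie off the line on the left.

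Across the 77 members, the differences in sap3 and WT had a Pearson r of 0.719 over the 9 arrays, beside 0.799 across all probe sets, and 47 members had the same sign (61.0%, beside 66.6% of all probe sets). In the pools, cml49 and WT had r = 0.693, beside 0.669, and 54 members had the same sign (70.1%, beside 62.2%). These correlations are across probe sets, which are not independent replicates, and members share arrays and normalisation.

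No member was called between the genotypes. For sap3 against WT in HL, limma called 0 of 77 members in the 12 arrays and 0 in the 9 arrays, beside 0.0% and 0.00352% of all probe sets, with 5 and 6 members at an unadjusted p under 0.05 (2.86% and 4.48% of all probe sets). In LL it called 0 and 0, beside 0.0% and 0.0%, with 5 and 5 at that p (4.52% and 6.01%). The interaction, which asks whether the light difference differed between sap3 and WT, gave 0 and 0 calls, beside 0.0% and 0.0%, with 2 and 8 at that p (2.62% and 4.20%). The values below are therefore descriptions of the arrays as labelled.

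TCH4 (XTH22, AT5G57560, chromosome 5, 23307130 to 23308282), an XTH known for its induction by touch, had the smallest p of all members in LL. Its LL signals were 7.15, 8.21 and 8.34 in sap3_LL_1, sap3_LL_2 and sap3_LL_3, against 5.70, 5.22 and 5.80 in WT_LL_1, WT_LL_2 and WT_LL_3. In HL it had 5.77, 7.09 and 8.19 in sap3_HL_1, sap3_HL_2 and sap3_HL_3, against 5.56, 5.99 and 5.86 in the WT HL arrays. All LL arrays labelled sap3 lay above all arrays labelled WT, while in HL sap3_HL_1 fell within the WT range. The difference in LL was 2.33 in the 12 arrays (SE 0.49, limma adjusted p = 0.971) and 2.17 in the 9 arrays (SE 0.41, limma adjusted p = 0.440). In HL the difference was 1.21 (SE 0.49) in the 12 arrays and 0.72 (SE 0.45) in the 9 arrays. The pools compare a different mutant with WT. In LL they had 5.55 in cml49 and 6.55 in WT, where the WT pool lay above every WT LL single replicate. In HL they had 5.64 in cml49 and 5.70 in WT. TCH4 was also among the members with the widest spread within groups, with an SD of 0.60 over the 9 arrays beside a median of 0.20 over all probe sets.

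XTH18 was the leading member in HL. Its signals were 3.30, 4.24 and 3.06 in sap3_HL_1, sap3_HL_2 and sap3_HL_3, against 2.61, 2.09 and 2.03 in WT_HL_1, WT_HL_2 and WT_HL_3. The groups did not overlap, also without the arrays set apart. The difference was 1.29 in the 12 arrays (SE 0.33, limma adjusted p = 1.00) and 1.45 in the 9 arrays (SE 0.29, limma adjusted p = 0.942). The HL pools had 2.55 in cml49 and 2.00 in WT. These signals lie below 4.39, the median of all values.

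EXPA24 in LL had 4.64, 4.03 and 4.19 in sap3, against 3.98, 3.68 and 3.87 in WT, without overlap, for a difference of 0.44 in the 12 arrays (SE 0.18, limma adjusted p = 0.971) and 0.57 in the 9 arrays (SE 0.20, limma adjusted p = 0.722). EXP26 (EXPA26) had the smallest unadjusted p of the members for the interaction over the 12 arrays, while XTH18 had it over the 9 arrays. Its signals were 0.87, 1.16 and 1.18 in sap3 HL, against 1.54, 1.82 and 1.43 in sap3 LL, and 1.23, 1.01 and 1.72 in WT HL, against 1.05, 1.38 and 0.80 in WT LL. HL lay below LL in sap3, while the WT groups overlapped, and all of these signals are low on the array. The interaction was -0.77 in the 12 arrays (SE 0.29, limma adjusted p = 0.999) and -0.87 in the 9 arrays (SE 0.31, limma adjusted p = 1.00). Between the pools, differences of at least 1 were found in TCH4 in LL (-1.00, cml49 minus WT; 1.3% of all probe sets) and, in HL, in XTH25 (1.3), XTH15 (1.23) and EXPA16 (-1.21), beside 1.07% of all probe sets.

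**Figure D5:**
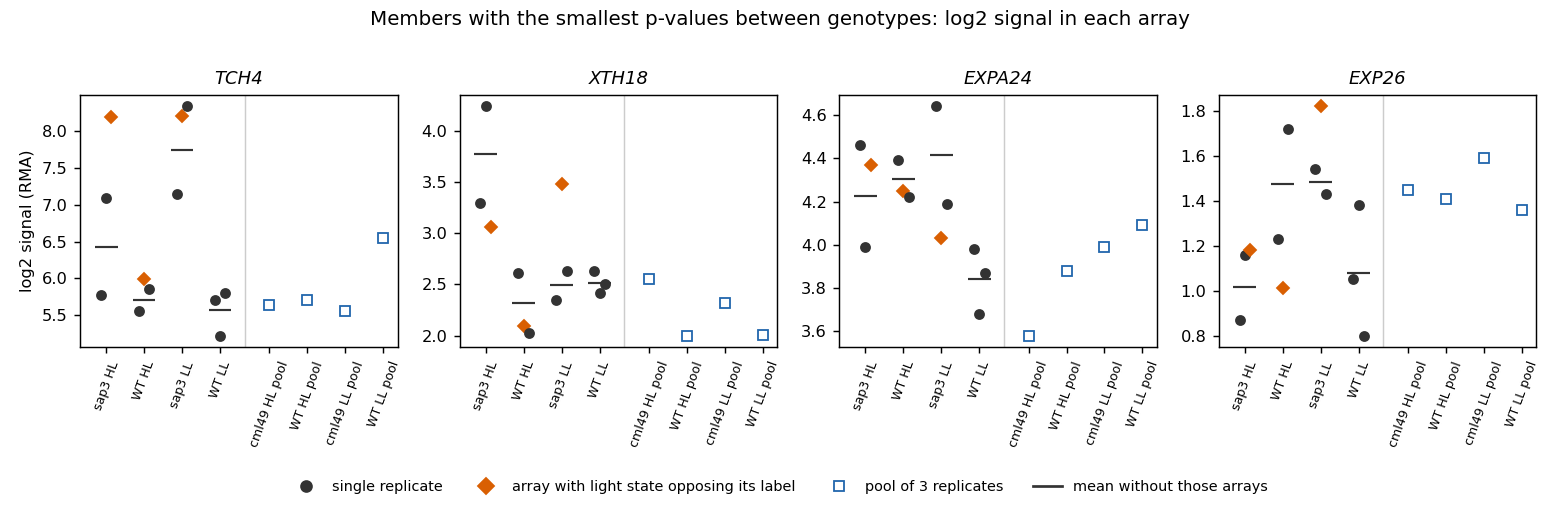
Log2 signal of TCH4, XTH18, EXPA24 and EXP26 in every array, with sap3 left of WT and cml49 left of WT in each light; circles are single replicates, orange diamonds the 3 arrays whose light state opposes their label, squares pools and lines the means without the diamonds. TCH4 in LL and XTH18 in HL are higher in every sap3 array than in every WT array, and none of the 4 genes was called between genotypes.

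Some members stood out in single arrays, and these were picked after their values were seen. EXLB1, an expansin-like gene, had 6.40 in WT_HL_2 and 4.36 to 4.87 in the other 11 single-replicate arrays. In sap3_LL_2, EXLA1 reached 7.63, with the next value of 6.61 in sap3_HL_2 and the lowest of 4.77 in WT_HL_1. XTR6 (XTH23) reached 4.74 in sap3_LL_2, with the next value of 3.54 in WT_HL_1. In these 3 members, 1 in WT_HL_2 and 2 in sap3_LL_2, an array exceeded all other single replicates by at least 1, which is 1.3% and 2.6% of the members, beside 0.197% and 0.0775% of all probe sets. In XTH6 the highest values were 8.32 in sap3_LL_2 and 7.74 in sap3_HL_2, with 6.10 to 6.69 in the remaining single-replicate arrays, and the LL pools (7.31 in cml49, 7.55 in WT) lay above the HL pools (6.43 in cml49, 5.83 in WT). XTH15, known to rise in shade, had 6.75 in sap3_LL_2 and 6.27 in sap3_HL_2, against 4.53 to 5.63 in the others. Its pools were lower in HL, at 4.62 against 5.52 in LL for cml49 and 3.39 against 5.47 for WT. The EXLA1 pools were also lower in HL, by 0.86 in cml49 and 1.55 in WT.

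The remaining members mostly differed little over the 9 arrays: in WT, 23 of 27 expansin and 30 of 35 xyloglucan probe sets not called lay within 0.5 of 0. In the WT pools, however, XTH25 (-2.68), XTH15 (-2.08), XTH6 (-1.72), EXLA1 (-1.55), EXPA8 (-1.14) and XTH8 (-1.05) fell in HL. In the cml49 pools these lay between -1.14 and -0.36, and XTH19 rose by 1.19. A member that is not called may still differ with light. The 27 expansin probe sets not called lay between -0.56 and 0.62 in sap3 and between -0.60 and 0.69 in WT. The 35 xyloglucan probe sets not called lay between -1.32, the value of TCH4, and 0.76 in sap3, and between -0.74 and 0.44 in WT. XTH4, CSLC04, EXPA8 and EXPA6 are given by array as members with a high mean signal, a list that also holds the called members XTH24 and EXP3. XTH4 had 9.47 and 10.31 in sap3_HL_1 and sap3_HL_2, against 10.24 and 10.42 in sap3_LL_1 and sap3_LL_3, and 9.33 and 9.48 in WT HL, against 10.08, 10.16 and 10.17 in WT LL. The groups overlapped in sap3 and not in WT, and the differences of -0.44 in sap3 and -0.73 in WT were not called (limma adjusted p = 0.365 and 0.0705). CSLC04, a synthase of the xyloglucan backbone, had 8.01 and 8.60 in sap3 HL, against 8.74 and 8.75 in sap3 LL, and 8.07 and 7.81 in WT HL, against 8.43, 8.20 and 8.51 in WT LL. HL was lower without overlap in both genotypes, with a log2 difference of -0.44 in each (limma adjusted p = 0.296 and 0.234). EXPA8 had 7.72 and 7.31 in sap3 HL, against 8.02 and 8.12 in sap3 LL, and 7.86 in both arrays of in WT HL, against 8.48, 8.23 and 8.66 in WT LL. Its differences were -0.56 in sap3 and -0.60 in WT (limma adjusted p = 0.130 and 0.0672), and its pools differed by -0.53 in cml49 and -1.14 in WT. EXPA6 lay higher in HL, at 7.61 and 7.52 in sap3 HL, against 7.33 and 7.41 in sap3 LL, and 7.74 and 7.77 in WT HL, against 7.40, 7.08 and 7.36 in WT LL. Its differences were 0.20 and 0.48 (limma adjusted p = 0.583 and 0.0796). Of the 77 members, 37 had their highest group mean below 4.39, and 3 of the 15 called members were among these.

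Within 10 kb of another member lay 21 members, in 7 runs, and 1 of these runs held called members. In the run of XTH24, XTH18 and XTH19 on chromosome 4, XTH24 was called in both genotypes and XTH18 in sap3, while XTH19 had -0.18 in sap3 and 0.33 in WT (limma adjusted p = 0.646 and 0.279). In the run of XTH12, XTH13, XTH25 and TCH4 on chromosome 5, none was called. None of the 6 expansins EXPA21, EXPA22, EXPA23, EXP26, EXPA25 and EXPA24, which lie side by side on chromosome 5, was called. EXPA22 is the 1 member that the authors' annotation marks as cross-hybridising with other transcripts.

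Further lists of wall genes were followed in the 9 arrays, where 7.57% of all probe sets were called in sap3 and 9.13% in WT, so that 1 call among 10 genes is near the background. Of 10 genes for primary wall cellulose, 1 rose in each genotype, the cellulose synthase CESA5, by 1.38 in sap3 (SE 0.19, limma adjusted p = 0.00174) and 1.10 in WT (SE 0.18, limma adjusted p = 0.00316). None of 3 secondary wall cellulose synthases was called. Of 14 genes for the xyloglucan backbone, side chains and trimming, 5 of which are also members, 1 rose and 1 fell in each genotype. XLT2, which adds galactose to side chains, rose by 1.03 in sap3 and 1.05 in WT (limma adjusted p = 0.00246 and 0.00109). BGAL10, the galactosidase that trims xyloglucan in the wall, fell by 1.09 in sap3 and by 1.19 in WT (limma adjusted p = 0.00799 and 0.00244). Of 10 pectin genes, 1 rose in each genotype, and 2 fell in sap3 and 3 in WT. The polygalacturonase PGX3, known from guard cells and expanding leaves, rose by 2.48 in sap3 and 2.14 in WT (limma adjusted p = 4.76e-05 and 5.55e-05). The pectin methylesterase PME3 fell by 1.23 in sap3 and 1.14 in WT (0.00339 and 0.00248), the pectin methyltransferase QUA2 by 0.89 and 0.84 (0.0113 and 0.00800), and the pectate lyase-like PMR6 by 0.56 in WT (0.0414). List medians were 0.10, -0.27, 0.04 and -0.12 in sap3 and -0.02, -0.10, 0.00 and 0.06 in WT, in the order primary cellulose, secondary cellulose, xyloglucan and pectin, beside -0.03 and -0.02 over all probe sets.

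Of the 4 guard cell markers, the potassium channel gene KAT1 rose by 1.61 in sap3 and 1.91 in WT (limma adjusted p = 0.000126 and 1.78e-05), and MYB60, FAMA and SLAC1 were not called. The log2 of their summed signals was 9.20 and 9.17 in sap3_HL_1 and sap3_HL_2, against 8.28 and 8.22 in sap3_LL_1 and sap3_LL_3. It was 9.47 and 9.46 in WT_HL_1 and WT_HL_3, against 8.32, 8.14 and 8.33 in the WT LL arrays. HL was higher without overlap in both genotypes. The arrays set apart had 8.24 in sap3_HL_3, 8.997 in sap3_LL_2 and 8.30 in WT_HL_2. KAT1 weighs most in this sum of signals, with a mean signal of 7.85 against 5.42 to 6.11 for the other markers, which gives no share of transcripts. MYB60, FAMA and SLAC1 differed by -0.125, 0.03 and -0.275 in sap3 and by 0.335, -0.083 and 0.117 in WT. The sum therefore mostly follows KAT1, and the markers did not move together. Any part of guard cells in the differences of EXPA1 and PGX3, both known from guard cells, was not tested.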

How the data were processed

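The values are log2 signals that the authors made with RMA in Affymetrix Expression Console, per the submitters' processing notes, and deposited to 2 decimals for 28501 probe sets, of which 98 outside the main category were left out. The software versions and genome build are not named in the sources used here. The number of probes and the cross-hybridisation code are other columns of the annotation deposited by the authors. A further 16 signal columns of that workbook were not used. Groups follow the titles. Differences were tested with limma 3.58.1 (lmFit and eBayes, R 4.3.3) in 1 model of 4 groups over 28403 probe sets, with Benjamini-Hochberg adjustment and a threshold of 0.05. The script was tested on simulated data. Tables and plots were made with pandas 2.3.3 and matplotlib 3.10.9. P-values measure the spread between samples of 15 plants. Members and gene lists were chosen with earlier results of these data known. Symbols outside the annotation come from a RefSeq gene table.

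Per family, the members described by array are up to 8 with the smallest adjusted p among those called for light in the 9 arrays, up to 4 with the largest mean pool difference of at least 1 in both pairs, the 3 with the highest mean, the 2 with the smallest p in each genotype contrast (with values only where called or at p under 0.05 in the 12 arrays), and the 2 with the smallest p for light in the 12 arrays. EXPA16, the clade III XTHs, XTH6, XTH15 and members that stood out in 1 array were added after their values were seen. Alternatives were the prior, the normalisation, a filter on dim probe sets, the groups in the fit, 1 probe set per locus and a replicate block. Each array of the groups compared was also left out in turn. No sequences were used.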

Additional observations from a re-analysis of the deposited data

How the results depend on the processing

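The counts of members called for light rest on which arrays are used: 0 over the 12 arrays in sap3 and in WT, against 13 in sap3 and 11 in WT over the 9 arrays. Within the 9 arrays, fitting only the groups compared gave 5 in sap3, where 8 calls were lost, and leaving out each array in turn gave 5 to 12 in sap3 and 5 to 11 in WT. In a check of pairing, the correlation r between arrays of the same replicate number was -0.48 to 0.53 over the 12 arrays. It was above 0.1 in 4 of 12 pairs. Over the 9 arrays it was -0.04 to 0.07 in 6 pairs. Whether the replicate numbers pair the samples is therefore not settled. The fit with the replicate block gave 9 in sap3 and 12 in WT over the 9 arrays, and 0 in both over the 12 arrays. Counts between genotypes and for the interaction stayed at 0 under every alternative run. The block ended the calls of EXPA5, EXPA9, EXPA16, EXPA20 and XTH18 in sap3 (limma adjusted p = 0.0554 to 0.129) and of EXGT-A3 in WT (0.0632). Over the 12 arrays, leaving out dim probe sets gave family medians in WT of 0.19 for expansins and -0.17 for the xyloglucan family. The xyloglucan median in sap3 was -0.16 over the 12 arrays and 0.015 over the 9 arrays. Of the 12 arrays, each of the 6 in the groups compared was left out in turn. The medians were then -0.0067 to 0.155 for expansins in sap3, -0.19 to -0.047 for the xyloglucan family in sap3 and -0.078 to 0.032 for it in WT. The cause of these shifts was not tested. No difference of a named member that passed its test changed sign. With 2 arrays in most groups of the 9, signal over background and array number limit the precision, and groups of 3 or fewer arrays were not tested for outliers.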
